A study of Saccharomyces cerevisiae with 32 samples.

Results

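The 10 genes described here encode amino acid permeases of the budding yeast plasma membrane: GAP1, AGP1, BAP2, BAP3, TAT1, TAT2, GNP1, HIP1, DIP5 and CAN1. They were picked by gene symbol from the 5449 S. cerevisiae genes of the array annotation, with no measured value in the rule. Each gene had 1 probe set. All 10 passed the filter on low signal, which kept 5377 genes. The data were 32 expression arrays of the strain CEN.PK113-7D, of mating type a, with no deletion, transgene or drug named in the labels. The cells grew in continuous culture at 30 °C and pH 4.0 on a glucose medium that held ammonium sulfate and yeast extract, at a dilution rate held between 0.06 and 0.086 per h. Dissolved oxygen in the fermentor rose and fell with a period of about 2 h, and a 0.5 ml sample was frozen every 4 min over slightly more than 1 cycle. The labels place each sample at a phase angle, in steps of 12.5°, and no angle has a replicate array. The 32 samples form 1 time course, in which n = 32 counts time points and no biological replicates, so no error below measures spread between cultures. Errors of fitted ranges are standard errors (SE), which rest on the scatter of samples around a fitted curve. Other errors are named where they are given.

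An amino acid permease carries amino acids into the cell together with protons. Yeast has broad-range permeases, which take up many amino acids as a nitrogen source, and narrow ones for particular amino acids. Their genes are known to be controlled in 2 main ways. Nitrogen catabolite repression keeps GAP1 and related genes low through GATA-type regulators when a preferred nitrogen source is plentiful. The membrane sensor Ssy1, with Ptr3 and Ssy5, releases the factors Stp1 and Stp2 when amino acids are present outside the cell, and these raise genes such as AGP1, GNP1, BAP2 and BAP3.

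Signals are given as deposited, on a linear scale, and precision is limited by how many arrays there are. Across arrays, the median signal of all S. cerevisiae probe sets ran from 1436 to 2340.2. Median signals of fission yeast probe sets on the same arrays, which served as background, lay between 5.4 and 9.8. Of the markers of mating type, the a-specific genes MFA1, MFA2 and STE2 had median signals of 8986, 11095 and 8231. The alpha-specific genes MF(ALPHA)1, MF(ALPHA)2 and STE3 were lower, with 1079, 77.7 and 648, but above the background. The arrays measured the whole culture, so a larger share of cells in a given state and more transcript per cell cannot be told apart.

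Most of the permease transcripts were highest shortly after 0° and lowest between 109° and 159°. Of the 10 genes, 8 had their highest sample between 9° and 35°, as did 21.7% of all genes. The exceptions were DIP5, highest at 84.2°, and BAP2, highest at 196°. The lowest sample lay between 122° and 159° for 8 genes, against 19.01% of all genes. TAT1 was lowest at 109° and BAP2 at 46.8°. All these angles are of the quantile normalized levels. In the deposited signals TAT1 was lowest at 122° and BAP2 highest at 246°. These windows were chosen after the values were seen.

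**Figure D1:**
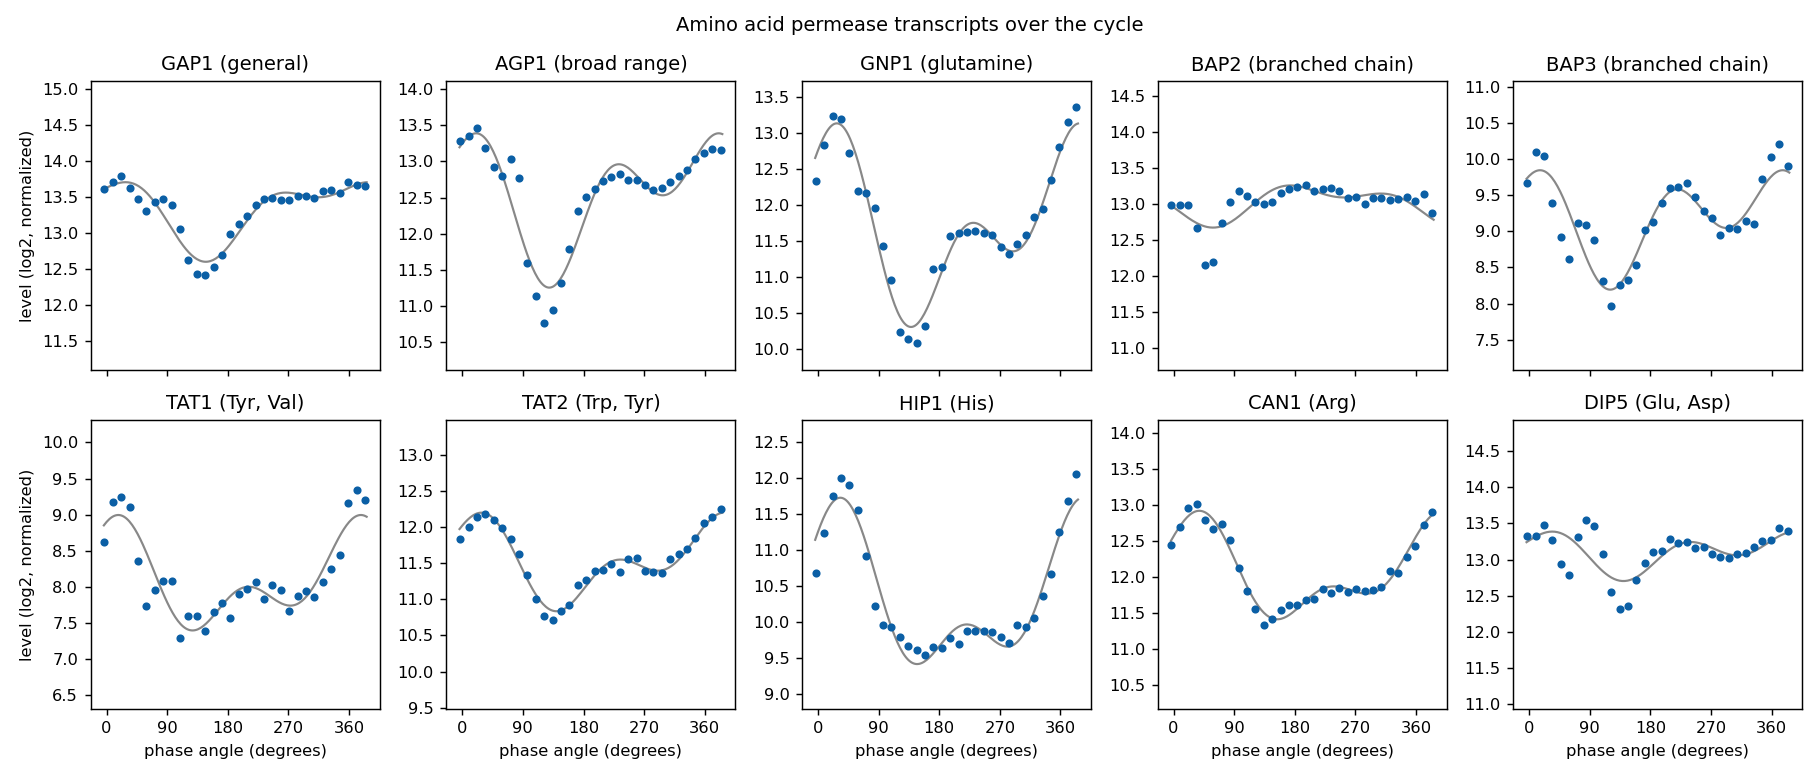
Level of each permease transcript (log2 of the quantile normalized signal, y axis, each panel spanning 4 log2 units) against phase angle in degrees (x axis, running on past 360 into the next cycle). Points are the 32 samples and lines are fitted curves with 2 harmonics; GNP1 spans 9.63-fold from its highest to its lowest sample, and BAP2 has a dip at 46.8° and 59.2° between near-level stretches.

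A single cosine wave of 1 turn per cycle was fitted to the log2 level of every gene, and its fitted range is the distance from peak to trough. By this limma F test all 10 permeases varied with phase at an adjusted p under 0.05, but so did 91.3% of all genes tested. Neighbouring samples of a culture resemble each other, which makes the test too lenient. After whitening, which allows for the correlation of 0.66 between neighbouring residuals, 7 permeases passed against 67.6% of all genes. BAP2, BAP3 and DIP5 did not pass. The whitened test was still too lenient on simulated data, since the residuals of a fit understate the correlation of the noise. That limit holds for every whitened value below. A second harmonic, a wave with 2 turns per cycle, passed its test in all 10 permeases against 83.9% of all genes, and after whitening in 9 of 10 against 72.8%, BAP2 being the exception. With the autocorrelation corrected for the fit it passed in 7 against 48.1%, and BAP2, DIP5 and TAT1 did not pass (limma adjusted p = 0.472, 0.290 and 0.0559). A test of both harmonics together, with the autocorrelation corrected for the fit, was added after seeing the data and passed 8 permeases against 60.1% of all genes. BAP2 and DIP5 did not pass it. The corrected autocorrelation applied to the single cosine alone left 0 permeases and 7.53% of all genes in limma. At an unadjusted p under 0.05 there were 4 permeases, against 32.9% of all genes. The residuals behind this autocorrelation of 0.96 still held the second harmonic, so it may be too high for the noise, which was not tested. Except in the corrected single cosine test, the shares of permeases that passed were near those over all genes or somewhat above. GNP1, HIP1, AGP1, TAT1 and CAN1, 5 of the 10, had a fitted range of 1 log2 unit or more, against 29.6% of all genes. The median fitted range was 1.07 for the permeases and 0.63 over all genes tested.

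Among the broad-range permeases, the general amino acid permease gene GAP1 (YKR039W), whose product takes up nearly all amino acids, had a deposited signal of 5482 at its lowest, 11124 at the median and 15136 at its highest sample. It stayed high for most of the cycle: 25 of 32 samples lay above the middle of its span, and the 7 low samples ran from 109° to 184°. On the normalized scale its highest sample, at 21.8°, was 2.58-fold above its lowest, at 146°. The fitted range was 0.91 ± 0.10 (SE, n = 32), with a limma adjusted p of 2.04e-08, or 0.000167 after whitening. This SE, like those of the other fitted ranges of genes, is from the plain fit, which treats neighbouring samples as independent. For GAP1 the SE was 0.17 after whitening and 0.22 from leaving out blocks of neighbouring samples, and for AGP1 0.36 and 0.67. For every permease both were larger than the plain SE. SEs of the signal ratios further below are whitened ones.

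AGP1 (YCL025C), encoding a low-affinity permease for most neutral amino acids, had deposited signals of 1530.5, 6992 and 12051 at the lowest, median and highest sample. Its course was a plateau with a short trough. Within the 4 min between the samples at 84.2° and 96.6° its level fell by 1.17 on the log2 scale, from a deposited signal of 6997 to 2996, against a residual SD of 0.26 around its 2-harmonic curve. It reached its lowest level at 122° and was back within 0.1 of its mean in the window from 180° to 225°, where the 4 samples averaged 0.09 above it. The fitted range was 1.43 ± 0.24 (limma adjusted p = 1.45e-05, or 0.00308 after whitening). On the normalized scale its highest and lowest samples differed 6.52-fold.

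GNP1 (YDR508C), a high-affinity permease for glutamine that also carries other neutral amino acids, showed the widest swing of the 10. Its deposited signal was 1021 at the lowest, 3297 at the median and 10491 at the highest sample. The normalized level differed 9.63-fold between the samples at 23.8° and 146°. It moved in stages: a peak with a mean of 1.37 ± 0.19 (SD, 5 samples) above its own average between 0° and 45°, a trough 1.27 ± 0.54 (SD, 3 samples) below it between 135° and 180°, and a shelf 0.17 ± 0.03 (SD, 3 samples) below it between 225° and 270°. The fitted range was 1.90 ± 0.27, with a limma adjusted p of 7.26e-07 (0.000441 after whitening).

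Of the genes for branched-chain and aromatic amino acids, BAP2 (YBR068C), a high-affinity permease of leucine, isoleucine and valine, stood apart. Its deposited signal lay between 4049 and 9733 with a median of 8609, and 29 of 32 samples were above the middle of its span. The lowest samples were those at 46.8° and 59.2°, with deposited signals of 4049 and 4416 against 8882 in the first sample and 8513 at 84.2°. On the normalized scale BAP2 at 46.8° was 1.11 below its highest sample. The array at 46.8° had a median signal of 1524, and the mean log2 signals of the poly-A control transcripts at 46.8°, 59.2° and 71.7° (7.48, 7.46 and 7.35) were the lowest of the 32 arrays. Their part in the low was not tested. Its fitted range of 0.43 ± 0.10 passed the plain limma test (adjusted p = 0.00116) but not the whitened one (0.144) or that of both harmonics (0.438). The fitted peak, at 228°, became 95.1° when arrays were scaled by the poly-A control transcripts.

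BAP3 (YDR046C), its paralogue with a wider range of branched-chain and other neutral amino acids, went through 2 lows by 122° and a shallower one later. Deposited signals were 169 at the lowest, 634 at the median and 1263 at the highest sample. The normalized level fell from 10.10 at 9.35° to 8.62 at 59.2°, rose to 9.12 at 71.7°, and fell again to 7.96 at 122°. A broad maximum of 9.67 followed at 234°, then a shallow low of 8.95 at 284°. Its fitted range was 0.97 ± 0.23 (limma adjusted p = 0.00108). That fit lost its call after whitening (0.0684), whereas the test of both harmonics passed (limma adjusted p = 0.00856); the single cosine explained 0.368 of its variance and 2 harmonics 0.803.

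TAT1 (YBR069C), a permease of tyrosine and some branched-chain amino acids, had deposited signals of 136, 269 and 721 at the lowest, median and highest sample. Its maximum was narrow: only 9 of 32 samples lay above the middle of its span, all of them between 346° and 46.8° in the 2 passages through that part of the cycle. Like BAP3 it dropped early, from a normalized level of 9.11 at 34.3° to 7.74 at 59.2°, rose slightly to 8.09 at 84.2°, and reached 7.28 at 109°. The fitted range was 1.18 ± 0.19 (limma adjusted p = 7.06e-06, or 0.0114 after whitening). TAT1 and BAP2 are neighbours on chromosome II with no gene between them in the R64 gene table, yet their levels over the 32 samples had a Pearson r of -0.17 (0.07 in the deposited values).

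TAT2 (YOL020W), the high-affinity tryptophan and tyrosine permease, followed a smooth course. Deposited signals were 1543, 3063 and 5217 at the lowest, median and highest sample. It showed no early dip: its normalized levels at 46.8° and 59.2° were 12.10 and 11.99, close to the maximum of 12.25. On the normalized scale the lowest sample lay at 134°, and highest and lowest differed 2.88-fold. The lowest deposited signal lay at 122°. Its fitted range was 0.94 ± 0.12, and 2 harmonics explained 0.964 of the variance with a residual SD of 0.09. The limma adjusted p was 3.01e-07 for the single cosine and 3.97e-08 for both harmonics.

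Of the narrow permeases, the histidine permease gene HIP1 (YGR191W) was high for a short part of the cycle. Deposited signals were 554.7 at the lowest, 1060.2 at the median and 4286 at the highest sample. Levels stood high over the 6 samples from 9.35° to 71.7° and again in the last 3, and were nearly flat from 96.6° to 309°, with means between 0.52 and 0.79 below its average in the 5 windows of 45° from 90° on. On the normalized scale the highest sample, at 23.8°, was 5.69-fold above the lowest, at 159°. The highest deposited signal lay at 34.3°. Its fitted range was 1.88 ± 0.22 (limma adjusted p = 3.09e-08, or 5e-05 after whitening).

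CAN1 (YEL063C), the arginine permease through which the toxic analogue canavanine enters the cell, rose and fell with HIP1 but less. Its deposited signal was 2592 at the lowest, 3998 at the median and 8982 at the highest sample. The normalized level peaked at 34.3°, stayed 0.58 ± 0.12 (SD, 4 samples) above its average between 45° and 90°, and was 0.58 ± 0.10 (SD, 3 samples) below it between 135° and 180°. A fitted range of 1.17 ± 0.12 was found for CAN1, with a limma adjusted p of 5.92e-09 (2.22e-05 after whitening), and 2 harmonics explained 0.971 of its variance.

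DIP5 (YPL265W), the permease of glutamate and aspartate, had a small fitted range, as BAP2 did. Deposited signals were 5634, 9331 and 12716 at the lowest, median and highest sample, and 27 of 32 samples lay above the middle of its span. It had a dip to a normalized level of 12.78 at 59.2°, its maximum of 13.55 at 84.2° and its lowest level, 12.31, at 134°. On the normalized scale the highest sample was 2.36-fold above the lowest. The fitted range of 0.40 ± 0.13 passed the plain limma test (adjusted p = 0.0179) but neither the whitened one (0.287) nor that of both harmonics (0.4002). With median scaling or without the last 3 samples the plain test did not pass either (limma adjusted p = 0.0612 and 0.0567). With poly-A scaling the range was 0.88, with a peak at 45.5° (limma adjusted p = 0.000734).

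**Figure D2:**
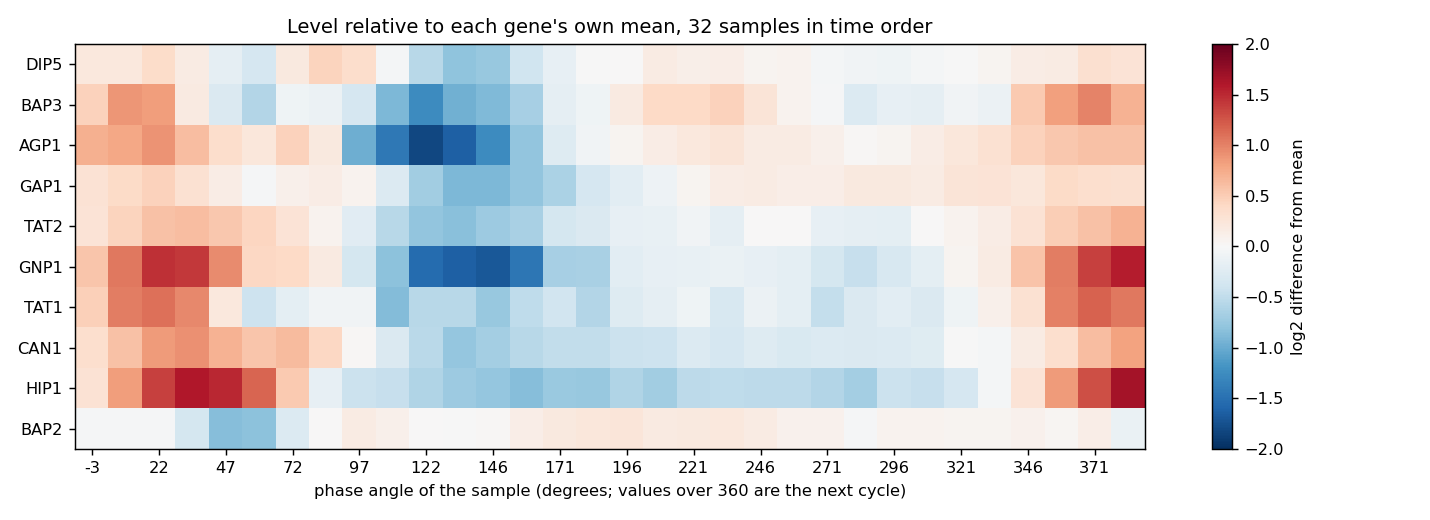
Level of each permease transcript minus its own mean (log2, colour) in the 32 samples in time order (x axis, phase angle in degrees). From 122° to 146° all rows except BAP2 are blue, darkest in AGP1 and GNP1, and HIP1 stays blue from 84.2° to 321°.

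The early low at 46.8° to 59.2° was visible in BAP2, BAP3, TAT1 and DIP5, as the heat map of levels by sample shows, and faintly in AGP1 and in GAP1, where 13.31 at 59.2° lay between 13.47 at 46.8° and 13.43 at 71.7°. CAN1 had a shallow low of the same kind, with 12.66 at 59.2° between 12.80 and 12.74. At both angles HIP1, CAN1, TAT2, GNP1 and AGP1 were above their own means. The arrays at 46.8° and 59.2° had median signals of 1524 and 1726, within the range of the others. This grouping was made after the values were seen and was not tested. The order of the maxima and minima was read from the 2-harmonic curves, with SEs from leaving out each of 8 blocks of 4 neighbouring samples. The maxima of all genes except BAP2 lay between 16.1° ± 8.3 (BAP3) and 38.2° ± 2.9 (CAN1). DIP5 is among them with 34.2° ± 9.4, although its highest sample lay at 84.2° and its curve explained only 0.469 of the variance. Of these maxima, GNP1 at 28.1° ± 2.4 and HIP1 at 33.3° ± 3.2 only just overlapped in their errors, and GNP1 and CAN1 did not overlap. The minima ran from 120.2° ± 5.7 (BAP3) through 129° ± 11.1 (AGP1), 138° ± 2.0 (GNP1) and 139.9° ± 4.9 (TAT2) to 147° ± 5.9 (GAP1) and 154° ± 6.0 (CAN1). Each gene lay within the combined errors of the next one in the order, whereas BAP3 and CAN1, at its ends, were farther apart than that. The BAP2 curve had its minimum at 58.6° ± 13.7 and its maximum at 173° ± 23.3.

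Whether permeases followed different courses was tested in 6 pairs through the ratio of their signals on the same array. A factor common to all signals of an array cancels in this ratio, but quantile normalization does not act as such a factor and changed some calls. For each pair the ratio of every gene to the second permease was fitted by limma after whitening, and adjusted p-values run over all genes. In the deposited values the ratio of BAP2 to its paralogue BAP3 had the largest fitted range of the 6. It differed 7.08-fold between its lowest sample, at 9.35°, and its highest, at 122°, with a fitted range of 1.53 ± 0.51 (limma adjusted p = 0.0356; 51.1% of all genes passed against BAP3). The quantile normalized values gave 1.08 for this pair, which did not pass (limma adjusted p = 0.125). AGP1 and GNP1, paralogues as well, gave a ratio with a fitted range of 1.18 ± 0.48 that did not pass (limma adjusted p = 0.0686; 79.8% of all genes passed against GNP1). In the sample at 159° this ratio was 3.52-fold higher than in the last one, at 23.8°. By 159° AGP1 had risen well above its low, and GNP1 was still close to its own. This pair passed with quantile normalized values (1.255, limma adjusted p = 0.0443).

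The ratio of GAP1 to CAN1 passed with a fitted range of 0.81 ± 0.21 (limma adjusted p = 0.0028; 87.2% of all genes passed against CAN1). It was lowest at 34.3° and highest at 234°, a 2.09-fold difference: GAP1 had climbed back by then, and CAN1 had not. The ratio of HIP1 to CAN1 passed too, with 0.83 ± 0.27 (limma adjusted p = 0.0189; 87.2% of all genes as before), and was 2.51-fold higher at 23.8° than at 96.6°. It did not pass with quantile normalized values (0.84, limma adjusted p = 0.0573), with odd time points (0.73, 0.068) or without the last 3 samples (0.67, 0.125). The ratios of TAT1 to TAT2 (0.63 ± 0.42, limma adjusted p = 0.359; 75.2% of all genes passed against TAT2) and of GAP1 to AGP1 (0.68 ± 0.49, 0.405; 29.3% against AGP1) did not pass. The GAP1 to AGP1 ratio was nonetheless 3.38-fold higher at 122° than in the first sample.

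**Figure D3:**
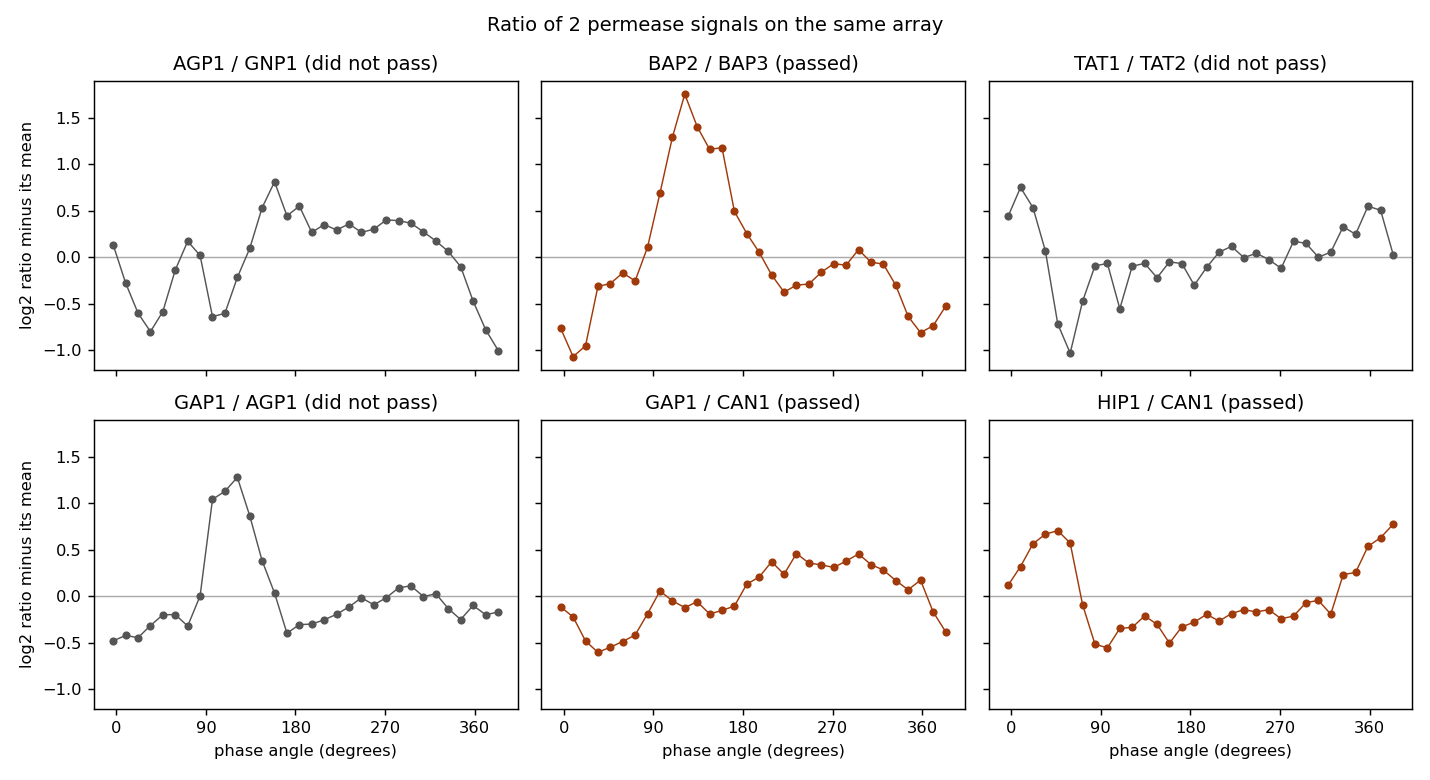
Log2 ratio of the deposited signals of 2 permeases on the same array minus its mean (y axis) against phase angle in degrees (x axis), 1 point per sample. Orange panels passed the whitened limma test and grey panels did not; BAP2 over BAP3 rises around 122°, and GAP1 over AGP1 has a rise limited to 96.6° to 146°.

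As a description of likeness, Pearson correlations were computed between the 10 levels over the same 32 samples, which share arrays and their neighbours in time. The 45 pairs had a median r of 0.74, and 18 of them lay above 0.8. The closest were TAT2 and GNP1 (0.98), HIP1 and CAN1 (0.94), GNP1 and CAN1 (0.92) and TAT2 and CAN1 (0.92). BAP2 had the lowest values, from -0.65 with HIP1 to 0.16 with BAP3. HIP1 and DIP5 (0.40) and BAP3 and HIP1 (0.50) were the least alike among the other 9.

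**Figure D4:**
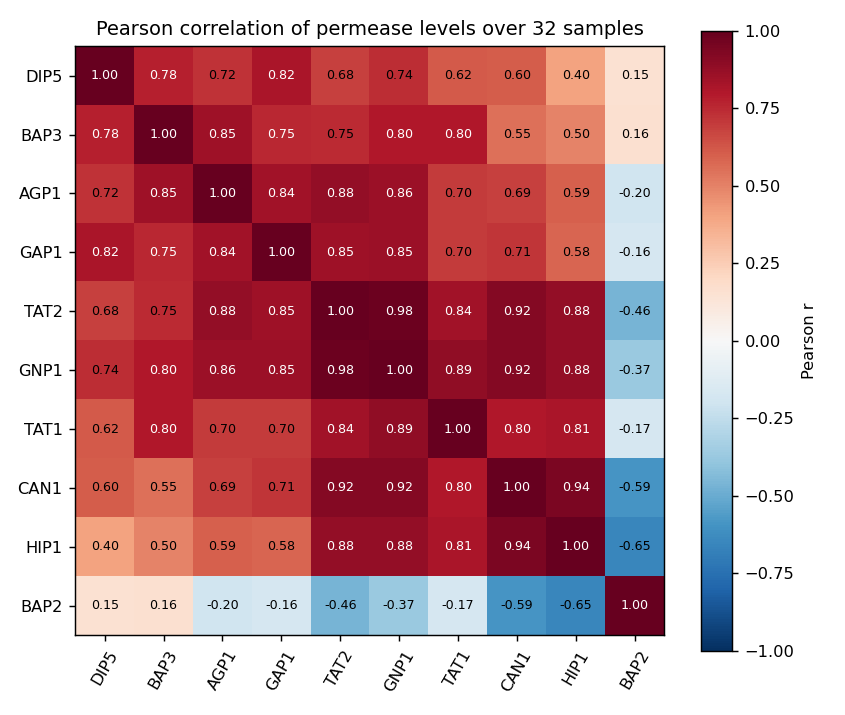
Pearson correlation of the normalized log2 levels of each pair of permeases over the 32 samples (colour and printed value). BAP2 is at most 0.16 against the other 9, and TAT2, GNP1, HIP1 and CAN1 form a block between 0.88 and 0.98.

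Outside the list, the genes whose levels were most like each permease were found by the same measure. For TAT2 they were RRP1 (r = 0.99), a ribosome assembly gene, and the lysine permease gene LYP1 (0.99), which also came first for GNP1 (0.97). HIP1 was most like RRP45 (0.99), an exosome subunit gene, and CAN1 most like PFK27 (0.98), a 6-phosphofructo-2-kinase gene. The biotin synthesis gene BIO3 (0.96) and DLD3 (0.96) were most like GAP1. AGP1 was closest to the sterol synthesis gene ERG1 (0.97) and the branched-chain synthesis gene ILV5 (0.96). BAP2 was closest to the acetyl-CoA synthetase gene ACS1 (0.95) and the acetate transporter gene ADY2 (0.94), and BAP3 to the biotin precursor transporter gene BIO5 (0.91). TAT1 was closest to VID24 (0.92), and DIP5 to the peroxisomal citrate synthase gene CIT2 (0.88).

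The last 3 samples have nearly the same phase angles as the first 3, 1 cycle earlier, and show how far levels returned. The mean difference, last minus first, was within 0.04 on the log2 scale for GAP1 (-0.03 ± 0.12, SD over 3 pairs of samples), BAP2 (0.04 ± 0.14), DIP5 (-0.01 ± 0.10) and CAN1 (-0.01 ± 0.05). HIP1 was higher in all 3 pairs, by 0.44 ± 0.13, as were GNP1 by 0.30 ± 0.18 and TAT2 by 0.16 ± 0.06, while AGP1 was lower in all 3, by 0.22 ± 0.08. TAT1 (0.22 ± 0.29) and BAP3 (0.11 ± 0.25) differed by less than the spread of their pairs. The median absolute difference over all genes was 0.14. In the deposited values HIP1 differed by only 0.01 ± 0.13, AGP1 fell by 0.45 ± 0.06 and CAN1 fell by 0.31 ± 0.05. TAT2 (-0.21 ± 0.09), TAT1 (-0.42 ± 0.40), BAP3 (-0.46 ± 0.34) and BAP2 (-0.22 ± 0.15) turned direction there. GAP1 (-0.16 ± 0.12) and DIP5 (-0.23 ± 0.09) were lower there as well, and GNP1 differed by 0.05 ± 0.16. These differences thus depend on the scaling of the arrays and were not tested.

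Beside the 10, 7 other genes of the amino acid permease family were measured. All 7 passed the whitened test, against 67.6% of all genes, 4 with a fitted peak within 90° of 0° and 3 within 90° of 180°. Over all genes 27.7% passed with a peak on the first side and 39.9% with a peak on the second. The corrected test of both harmonics passed 5 of the 7, against 60.1% of all genes, without AGP3 and PUT4 (limma adjusted p = 0.264 and 0.0760). MMP1 and SAM3, permeases of S-methylmethionine and S-adenosylmethionine, had fitted ranges of 2.32 ± 0.18 and 2.05 ± 0.19 with peaks at 328° and 353°. ALP1, a relative of CAN1 and LYP1 among the permeases for basic amino acids, ran the other way, with 2.13 ± 0.18 and a peak at 244°. Its normalized level was lowest at 71.7° and highest at 246°, and its deposited signal ran from 173 to 1700. LYP1 and CAN1 had fitted peaks at 357° and 24.0°, with their highest samples at 23.8° and 34.3°. These fitted peaks are of the single cosine, not maxima of the 2-harmonic curves. By the same measure the 10 permeases, except BAP2, peaked from 321° (BAP3) through 0° to 26.7° (HIP1). Of 5 further uptake genes, 4 passed the whitened test, all with peaks within 90° of 0°. In the corrected test of both harmonics 3 passed, against the same 60.1% of all genes, and UGA4 did not (limma adjusted p = 0.0774). The methionine permease gene MUP1 led with 4.34 ± 0.41, followed by its low-affinity relative MUP3 (1.84 ± 0.19) and the oligopeptide transporter gene OPT1 (1.77 ± 0.28); the peptide transporter gene PTR2 did not pass after whitening (0.81 ± 0.20, limma adjusted p = 0.177).

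Most targets of nitrogen catabolite repression had fitted peaks on the 0° side, as most permeases did. Of 15 measured targets other than permeases, 13 passed the whitened test, 12 of them with peaks within 90° of 0°, against 67.6% and 27.7% of all genes. The corrected test of both harmonics also passed 13, against 60.1% of all genes. The allantoinase gene DAL1 (2.97 ± 0.27, peak at 35.2°), the ammonium permease gene MEP3 (2.96 ± 0.29, 17.6°) and the urea transporter gene DUR3 (2.54 ± 0.20, 34.4°) had the largest ranges. UGA1, a GABA transaminase gene, peaked on the other side, at 213°, and PUT2 and CPS1 did not pass (fitted ranges 0.07 and 0.07). Of 6 regulator genes, 3 passed the whitened test, a share below the 67.6% of all genes. They were GZF3 (1.12 ± 0.16), DAL80 (1.09 ± 0.14) and GAT1 (1.01 ± 0.15), with peaks at 10.6°, 52.3° and 1.6°. The same 3 passed the corrected test of both harmonics, against 60.1% of all genes. GLN3, an activator of these targets, URE2, which holds Gln3 back, and GCN4, an activator of amino acid synthesis, had ranges of 0.24, 0.23 and 0.10 and did not pass after whitening.

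Of 8 measured genes of amino acid sensing, 2 passed the whitened test, against 67.6% of all genes: ASI2 (1.04 ± 0.14, peak at 200.1°) and ASI1 (0.88 ± 0.14, 198°), whose products hold back Stp1 and Stp2 at the inner nuclear membrane. SSY1, PTR3, SSY5, STP1, STP2 and ASI3 had fitted ranges between 0.04 and 0.27 and did not pass, although STP1 passed the test of both harmonics (limma adjusted p = 0.0381). The median fitted range was 0.24 for the sensing genes and 1.77 for the repression targets, against 0.63 over all genes tested.

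**Figure D5:**
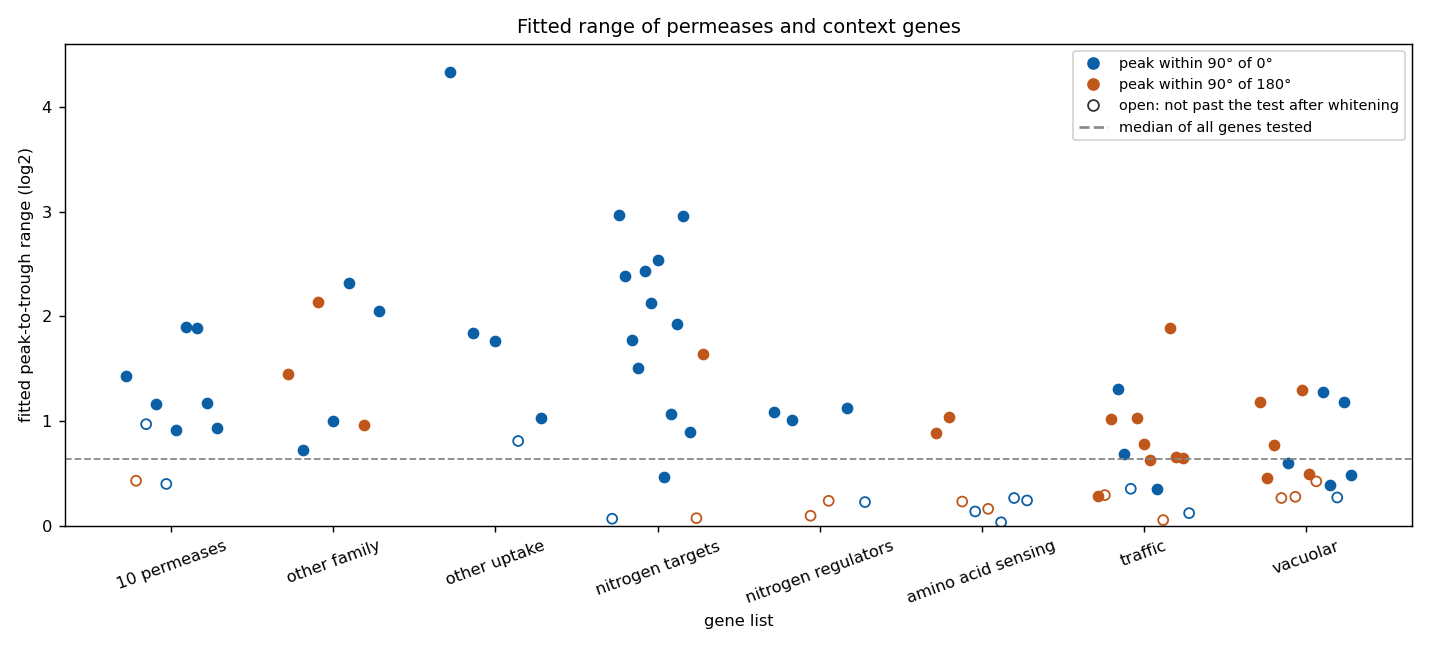
Fitted peak-to-trough range (log2, y axis) of each measured gene in 8 gene lists (x axis), 1 point per gene. Blue and orange points peak within 90° of 0° and of 180°, open points did not pass the whitened limma test, and the dashed line is the median of 0.63 over all genes tested; nitrogen targets are mostly blue and above the line, and sensing genes mostly open and below it.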

How the data were processed

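Total RNA of 32 samples was hybridised to Affymetrix Yeast Genome 2.0 arrays, 1 per sample. What the authors deposited is 1 intensity per probe set, on a linear scale. GCOS is named in the submitters' processing notes; sources used here give neither its version nor the scaling. Of 10928 probe sets, 5498 name 1 S. cerevisiae gene and 1747 are of S. pombe. Symbols were updated through the R64 gene table. A pseudocount of 1.9, the 10th percentile, was added before log2, and arrays were quantile normalized, since array medians spanned 0.70 on the log2 scale. The brightest probe set stood for a gene, and a gene was tested if its mean log2 level exceeded 4.45 (95th percentile among S. pombe probe sets) (R 4.3.3, limma 3.58.1). P-values were Benjamini-Hochberg adjusted over all 5377 genes, with a threshold of 0.05. Whitening used 1 autocorrelation per fit: 0.66 for the single cosine, 0.38 for 2 harmonics and from 0.72 to 0.80 for the ratios. The residuals of a fit understate the autocorrelation of the noise. Corrected values are 0.96 for the single cosine and 0.80 for 2 harmonics. Residuals of the single cosine also hold the second harmonic, which may make 0.66 and 0.96 too high. On simulated data with autocorrelated noise the plain and the whitened tests called too many unchanged genes and the corrected tests did not; the corrected tests also missed more of the small changes. The corrected tests were added after the data were seen. All samples form 1 group, a single time course without biological replicates, so p-values reflect scatter about a fitted curve, which may be technical.

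The permeases, pairs and context lists were chosen with earlier results of these data known. By rule the text names all 10 permeases, from each list up to 3 genes, those of largest range, plus those that did not pass, and up to 2 genes most alike to each permease; other genes were chosen after their values were seen. One of 16 repression targets (DUR1,2) was not analysed here, and no promoter or protein sequence was used.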

Additional observations from a re-analysis of the deposited data

How the results depend on the processing

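The count of permeases that varied with phase lay between 8 and 10 under 14 alternatives to the single cosine test (no scaling, median or poly-A scaling, other filters and pseudocounts, mean of probe sets, time or array number added, odd or even time points, without the last 3 samples, both harmonics). The share of all genes that passed was 91.3% in the main setting, 84.9% without scaling and 89.8% with poly-A scaling. After whitening the count of permeases lay between 6 and 9, and the shares of all genes in these settings were 67.6%, 62.8% and 48.7%. With the corrected autocorrelation of 0.96 the count was 0 in limma, where 7.53% of all genes passed. There 4 permeases had an unadjusted p under 0.05, against 32.9% of all genes. With both harmonics tested together 8 passed, against 60.1% of all genes. The second harmonic with its corrected autocorrelation passed in 7 permeases, against 48.1% of all genes. The fitted range of BAP2 changed sides with poly-A scaling (0.39, peak at 95.1°), under which the median gene itself spanned 1.23 on the log2 scale, from a low at 334° to a high at 71.7°. The ratio of AGP1 to GNP1 passed with quantile normalized values (1.255), without whitening (0.99) and with both harmonics (1.02). Without whitening, the ratios of TAT1 to TAT2 (0.56) and GAP1 to AGP1 (0.62) passed too. The ratio of BAP2 to BAP3 did not pass with quantile normalized values (1.08), nor did that of HIP1 to CAN1 with these (0.84), with odd time points (0.73) or without the last 3 samples (0.67). In the single cosine test DIP5 did not pass with median scaling, odd or even time points or without the last 3 samples, BAP2 did not with odd and BAP3 did not with even time points. BAP3 passed after whitening with deposited values, median or poly-A scaling or array number added, and TAT1 did not without the last 3 samples. The cause of these changes was not tested. No paired analysis was possible because the 32 samples form 1 group with no replicate numbers shared between groups.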

Other observations

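Permease activity also depends on where the protein is sent. Of 15 genes of permease traffic and ubiquitination, 11 passed the whitened limma test, 8 with fitted peaks within 90° of 180° and 3 within 90° of 0°; over all genes 39.9% and 27.7% passed on these sides. The corrected test of both harmonics passed 9 of the 15, against 60.1% of all genes, and ROG3 and ALY1, both on the 180° side, did not pass it (limma adjusted p = 0.340 and 0.285). ROD1, an arrestin-like adaptor gene, had the largest range (1.89 ± 0.18, peak at 182°). The adaptor genes ART5 (1.31 ± 0.18) and CSR2 (1.03 ± 0.15) followed, with peaks at 31.8° and 200.4°. RSP5, encoding the ubiquitin ligase that such adaptors recruit to permeases, had a range of 0.65 ± 0.09 and a peak at 201°. BUL2, ALY2, SHR3 and NPR1 did not pass after whitening, with ranges of 0.35, 0.29, 0.12 and 0.06; Shr3 is needed for permeases to leave the endoplasmic reticulum, and Npr1 is a kinase that stabilises Gap1.

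Transporters of the vacuole, which stores amino acids, had peaks on both sides. Of 14 such genes, 10 passed the whitened test, near the 67.6% of all genes, 5 on each side, against 27.7% near 0° and 39.9% near 180° of all genes. AVT6 (1.29 ± 0.18, peak at 209°), an exporter of acidic amino acids, and VBA1 (1.28 ± 0.12, peak at 22.02°) and YPQ1 (1.18 ± 0.16, 11.7°), transporters of basic amino acids, had the largest ranges. RTC2, AVT5, VBA3 and AVT3 did not pass (ranges from 0.27 to 0.43), although RTC2 passed the corrected test of both harmonics (limma adjusted p = 0.0359), in which VBA2 did not (0.324), and the signal of VBA3 reached down to the background, with a lowest value of 2.7.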
